A study of Mus musculus with 12 samples.

Results

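The genes described here encode 8 proteins that set the lifetime of cytokine mRNAs: the tristetraprolin family (Zfp36, Zfp36l1 and Zfp36l2), the Regnase family (Zc3h12a and Zc3h12c), the Roquins (Rc3h1 and Rc3h2) and the stabilising protein Arid5a. They were chosen with earlier results of these data known, matched by symbol to the Ensembl identifiers of the count table, and make up 8 of its 55414 identifiers. All 8 passed the filter on low counts in liver and in lung. The RNA came from livers and lungs collected 6 h after surgery, sham or CLP, on C57BL/6J mice of wild-type genotype. CLP is the usual abbreviation of cecal ligation and puncture, which leaks gut bacteria into the peritoneum as an experimental form of sepsis. Each of the 4 groups (sham liver, CLP liver, sham lung, CLP lung) held 3 libraries, and the shams carried no other agent or allele. The labels give neither age nor sex. They do not say whether the 3 libraries of a group are 3 mice, or whether a liver and a lung came from the same mouse. A p-value here therefore reflects just the spread between these samples.

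Many cytokine mRNAs carry AU-rich elements, runs of A and U in the 3′ untranslated region. Zfp36 (tristetraprolin) and its relatives bind these elements through a pair of zinc fingers and recruit the CCR4-NOT complex, which removes the poly(A) tail and starts decay. Regnase-1, the product of Zc3h12a, is an endonuclease that cuts stem-loops in inflammatory mRNAs such as Il6, and the Roquins bind similar stem-loops and recruit deadenylases. Arid5a acts the other way: it binds the Il6 mRNA and protects it from Regnase-1. Several of these genes are themselves induced by inflammatory signals, and several of the proteins act on their own mRNA.

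Libraries held between 10559895 and 15854117 counts, which makes 3 counts worth 0.189 to 0.284 CPM (counts relative to the library size). Levels below are CPM scaled within each organ, unless stated otherwise. The summed level of 6 hepatocyte markers was 58347 to 94453 CPM over the liver libraries and 19.7 to 104 over the lung libraries, and that of 5 alveolar type 2 cell markers was 18519 to 24139 in lung and 76.8 to 98.4 in liver. Most of that liver sum was Abca3 (75.5 CPM in shams, 69.4 after CLP). Of the 4 type 2 markers tested in liver, 3 were called higher after CLP. Sftpc, for example, had 45 counts over the sham livers and 255 over the CLP livers, and the source was not tested. In bulk tissue, fewer cells of a type and less RNA per cell cannot be told apart. In liver, 2647 of 12392 genes tested were higher after CLP (21.4%) and 2600 lower (21.0%) (edgeR quasi-likelihood fit, threshold 0.05 on the p adjusted by Benjamini-Hochberg). In lung, 3698 of 15441 were higher (23.9%) and 3850 lower (24.9%). On unscaled library totals the median of all genes moved from -0.01 to -0.21 log2 in liver and from -0.03 to -0.13 in lung, and the calls became 1689 higher and 3796 lower in liver and 2977 and 4847 in lung. With upper-quartile scaling the medians were -0.10 and -0.14, and the calls were 2122 higher and 3144 lower in liver and 2929 and 4946 in lung.

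Zfp36, Zfp36l1, Zc3h12a and Arid5a rose in both organs, so the rise took in genes of decay-promoting proteins and the gene of the stabiliser alike. Of the 8 genes, 4 were called higher in liver and 0 lower, and 6 were called higher in lung and 0 lower. The 4 called in liver all rose at least 2-fold, as did 8.88% of the genes tested there, and in lung 3 of the 6 did, against 9.42% of genes tested. In each organ 6 of the 8 genes had every CLP library above every sham library, which held for 28.1% of genes in liver and 28.6% in lung. The median log2 fold change of the 8 genes was 1.06 in liver and 0.47 in lung, beside -0.01 and -0.03 over all genes tested. Because the 8 genes were chosen with earlier results of these data known, their excess over all genes is not independent evidence. The calls of Zfp36, Zfp36l1, Zc3h12a and Arid5a held in both organs under all 12 alternative settings in each.

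**Figure D1:**
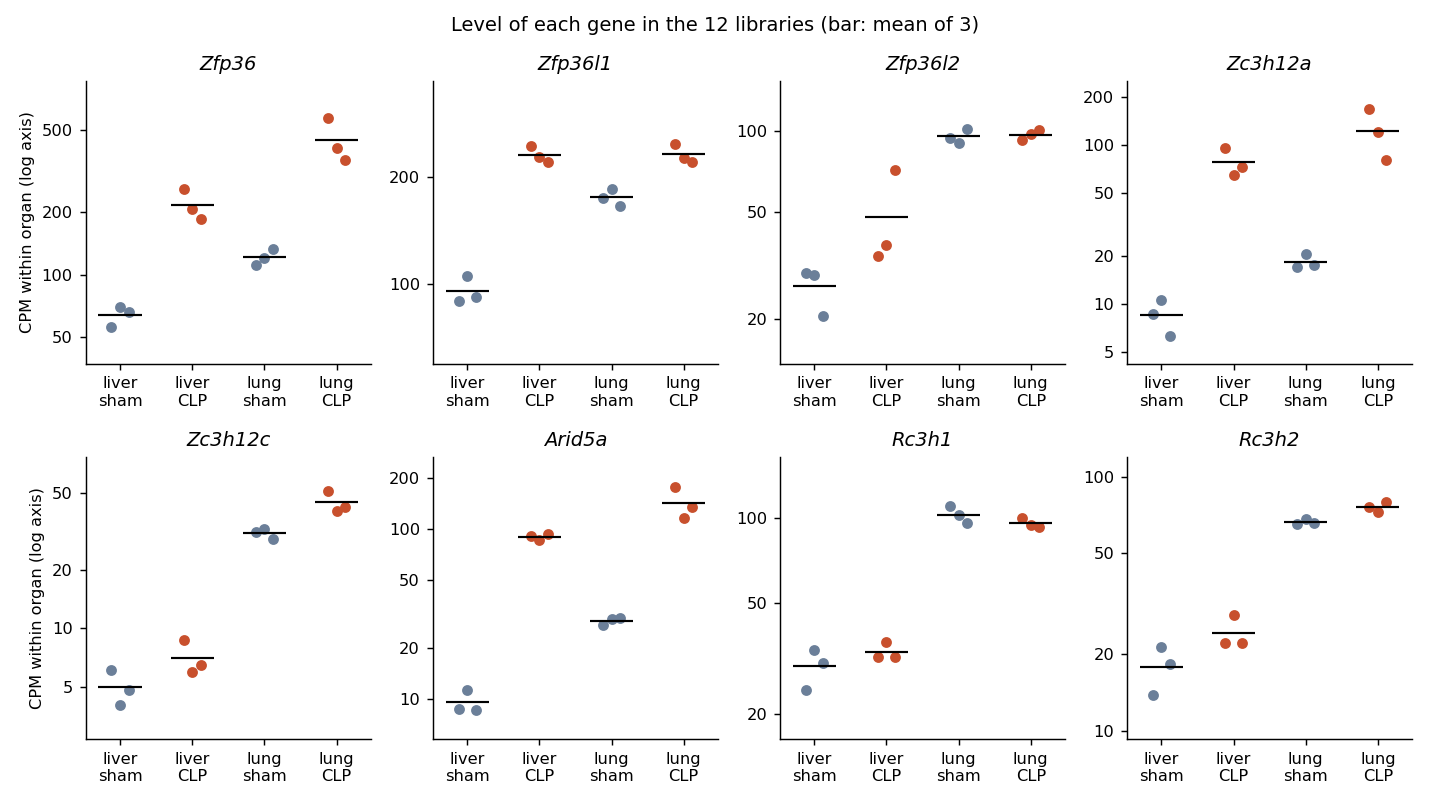
Level of each of the 8 genes in the 12 libraries, in CPM scaled within the organ on a log axis, by organ and surgery; points are libraries and bars are means of 3. Zfp36, Zfp36l1, Zc3h12a and Arid5a have every CLP library above every sham library in both organs, and Zfp36l2 has 1 CLP liver library, at 71.5 CPM, well above the other CLP liver libraries.

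Zfp36 (ENSMUSG00000044786), the founding member of its family and a destabiliser of Tnf mRNA, had 55.9, 69.6 and 66.3 CPM in the sham livers and 259, 206 and 185 CPM in the CLP livers. In lung it had 111, 120.1 and 133 CPM in the shams and 571, 406 and 357 CPM after CLP. The groups did not overlap in either organ, and the lowest CLP lung library was still well above the highest sham lung library. The log2 fold change was 1.76 ± 0.15 in liver (standard error, edgeR adjusted p = 1.1e-04) and 1.87 ± 0.18 in lung (edgeR adjusted p = 1.76e-04), about 3.39-fold and 3.67-fold.

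Zfp36l1 (ENSMUSG00000021127), a paralog that binds the same AU-rich motif, had 89.2, 105 and 91.8 CPM in sham liver and 244, 227 and 219 CPM in CLP liver. In lung it had 174, 185 and 166 CPM in the shams and 248, 225 and 219.8 CPM after CLP. These levels are scaled within each organ and do not set the organs side by side. With scaling over all 12 libraries the gene had 143 to 170 CPM in sham liver, 352 to 393 in CLP liver, 104 to 116 in sham lung and 135 to 153 in CLP lung, with liver above lung under either surgery on that scale. On library totals the sham order turned, with 96.7 to 107 in sham liver and 173 to 191 in sham lung, and CLP liver (202 to 231) and CLP lung (214 to 235) overlapped. The gene rose in both organs, by 1.27 ± 0.11 log2 in liver (edgeR adjusted p = 1.23e-04) and by 0.40 ± 0.09 in lung (edgeR adjusted p = 0.00536).

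Zfp36l2 (ENSMUSG00000045817), the third paralog, had 29.7, 29.3 and 20.5 CPM in sham liver and 34.4, 37.6 and 71.5 CPM in CLP liver. Every CLP library was above every sham library, but CLP replicate 3 stood apart from the other 2. The log2 difference in liver was 0.85 ± 0.30 and was not called (edgeR adjusted p = 0.0593), and without CLP replicate 3 it was 0.45. DESeq2 gave 0.85 and called it (adjusted p = 0.011), as did edgeR without CLP replicate 1 (1.04, adjusted p = 0.0401). In lung Zfp36l2 had 94.1, 90.3 and 102 CPM in the shams and 92.1, 97.6 and 101 CPM after CLP, with overlapping groups and a log2 difference of 0.02 ± 0.08 (edgeR adjusted p = 0.844).

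The site these zinc fingers bind best is the nonamer TTATTTATT. It was searched on the transcript strand of the 3′ untranslated region of 1 transcript per gene, that with the longest coding sequence in a GENCODE annotation of build GRCm38. Zfp36, Zfp36l1, Zfp36l2, Rc3h1 and Rc3h2 each held 1 nonamer, and Zc3h12a, Zc3h12c and Arid5a held 0. Over 20648 genes with a 3′ untranslated region, 6.93% held it. The share depends on length: among regions of like length, it was 4.57% for Zfp36 (774 bases), 9.64% for Zfp36l1 (1835 bases) and 9.57% for Zfp36l2 (1822 bases), but 27.1% for Rc3h1 (7181 bases) and 21.9% for Rc3h2 (5160 bases). The stretches around the site in the 3 family members are shown to set the family's own mRNAs beside a stretch of Tnf, the best known target, which held 5 overlapping nonamers. The nonamer is in capitals, with 10 bases on either side. In Tnf the capitals mark the nonamer that starts at base 456 of the region. Those starting at bases 449 and 460 lie in the same stretch, partly in lower case.
Zfp36: tatgacgactTTATTTATTgtattaagat
Zfp36l1: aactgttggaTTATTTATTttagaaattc
Zfp36l2: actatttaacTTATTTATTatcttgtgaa
Tnf: tatttatttaTTATTTATTtatttgctta
A match describes the letters and says nothing of binding.

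Zc3h12a (ENSMUSG00000042677), which encodes Regnase-1, had 8.73, 10.6 and 6.35 CPM in sham liver and 95.6, 64.5 and 72.6 CPM in CLP liver. Its lung levels were 17.2, 20.5 and 17.7 CPM in the shams and 168, 121 and 79.8 CPM after CLP. All CLP libraries were several times above all shams, with a wider spread among the CLP lungs than among the CLP livers. The rise was 3.19 ± 0.22 log2 in liver (9.11-fold, edgeR adjusted p = 5.98e-05) and 2.74 ± 0.27 in lung (6.66-fold, edgeR adjusted p = 2.9e-04).

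Zc3h12c (ENSMUSG00000035164), the gene of the related Regnase-3, was sparse in liver, with 54 to 84 counts per sham library and 63 to 113 per CLP library. Its liver levels were 6.11, 4.0 and 4.79 CPM in the shams and 8.69, 5.94 and 6.47 CPM after CLP. The liver groups overlapped, and the log2 difference of 0.51 ± 0.22 was not called (edgeR adjusted p = 0.0975). In lung it had 31.3, 32.4 and 28.9 CPM in the shams and 51.0, 40.2 and 42.3 CPM after CLP. The lung groups did not overlap, and the gene rose by 0.53 ± 0.11 log2 (edgeR adjusted p = 0.00439), close in size to the uncalled liver difference.

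Arid5a (ENSMUSG00000037447), the stabiliser, had 8.66, 11.3 and 8.62 CPM in sham liver and 91.0, 86.0 and 93.3 CPM in CLP liver. The lung values were 27.1, 29.4 and 29.8 CPM in the shams and 178, 117 and 136 CPM after CLP. The CLP livers were close to each other, and no library of either organ overlapped the other group. The rise was 3.25 ± 0.13 log2 in liver (9.48-fold, edgeR adjusted p = 7.0e-06), the 4th lowest p of the 12392 genes tested, and 2.32 ± 0.16 in lung (4.99-fold, edgeR adjusted p = 5.48e-05), the 114th lowest of 15441.

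The promoters of Zfp36, Zc3h12a and Arid5a, which rose at least 2-fold in both organs, are shown as the 250 bases before the RefSeq start site (build GRCm38.p6, read on each gene's strand). The table of promoters held 7 of the 8 genes, all but Zfp36l2. A script searched both strands for an NF-kB consensus, a CArG box, and the letters TGANTCA (AP-1), TTCNNNGAA (STAT), TGACGTCA (CRE), GCGGGGGCG (EGR) and TTGCGCAA (a C/EBP palindrome). Capitals mark the matches.
Zfp36, chr7:28379229-28379478, minus strand: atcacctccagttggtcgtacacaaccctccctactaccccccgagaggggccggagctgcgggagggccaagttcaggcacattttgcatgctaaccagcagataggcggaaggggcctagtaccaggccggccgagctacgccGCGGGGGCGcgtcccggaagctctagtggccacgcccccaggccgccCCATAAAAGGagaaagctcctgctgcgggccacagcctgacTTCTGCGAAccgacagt
Zc3h12a, chr4:125127882-125128131, minus strand: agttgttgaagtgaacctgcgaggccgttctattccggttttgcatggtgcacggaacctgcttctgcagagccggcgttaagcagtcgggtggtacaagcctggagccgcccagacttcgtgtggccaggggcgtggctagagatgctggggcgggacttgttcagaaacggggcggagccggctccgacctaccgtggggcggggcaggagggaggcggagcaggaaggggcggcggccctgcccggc
Arid5a, chr1:36307483-36307732, plus strand: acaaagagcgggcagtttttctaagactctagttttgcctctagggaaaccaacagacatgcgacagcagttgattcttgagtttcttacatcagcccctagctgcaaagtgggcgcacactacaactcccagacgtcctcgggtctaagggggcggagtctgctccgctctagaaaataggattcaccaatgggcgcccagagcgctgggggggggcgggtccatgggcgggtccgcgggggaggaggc
The Zfp36 window held an EGR match 105 to 97 bases before the start, a CArG box 58 to 49 bases before it and a STAT match 17 to 9 bases before it. Of 32851 promoter windows of this length, 2.57% held the EGR letters, 1.47% a CArG box and 7.02% the STAT letters. The Zc3h12a and Arid5a windows held none of the 7 motifs, which says only that these letters are not in these 250 bases. Among the other genes, Zfp36l1 and Rc3h1 each held the AP-1 letters (6.75% of windows) and Zc3h12c an NF-kB consensus (7.25%).

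Rc3h1 (ENSMUSG00000040423), which encodes Roquin-1, had 24.4, 33.9 and 30.5 CPM in sham liver and 31.9, 36.3 and 31.9 CPM in CLP liver. Lung levels were 110.1, 102 and 96.1 CPM in the shams and 99.8, 94.5 and 92.9 CPM after CLP. The groups overlapped in both organs, and neither difference was called: 0.17 ± 0.13 log2 in liver (edgeR adjusted p = 0.327) and -0.10 ± 0.08 in lung (edgeR adjusted p = 0.305). In lung, edgeR called Rc3h1 lower on unscaled library totals (-0.21, adjusted p = 0.0448) and with upper-quartile scaling (-0.21, adjusted p = 0.0439). On library totals the liver difference was -0.01.

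Rc3h2 (ENSMUSG00000075376), which encodes Roquin-2, had 13.9, 21.4 and 18.3 CPM in sham liver and 22.2, 28.6 and 22.2 CPM in CLP liver. In lung it had 65.1, 68.1 and 65.6 CPM in the shams and 75.8, 72.8 and 79.7 CPM after CLP. The groups did not overlap in either organ, although the gaps were small. The lung difference of 0.20 ± 0.07 log2 was called (edgeR adjusted p = 0.0454) and the liver difference of 0.45 ± 0.18 was not (edgeR adjusted p = 0.0706). The lung call was lost under 9 of 12 alternatives, among them DESeq2 (adjusted p = 0.0522), library totals (0.10 log2, edgeR adjusted p = 0.298), and leaving out CLP replicate 1 or any 1 of the 3 shams.

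**Figure D2:**
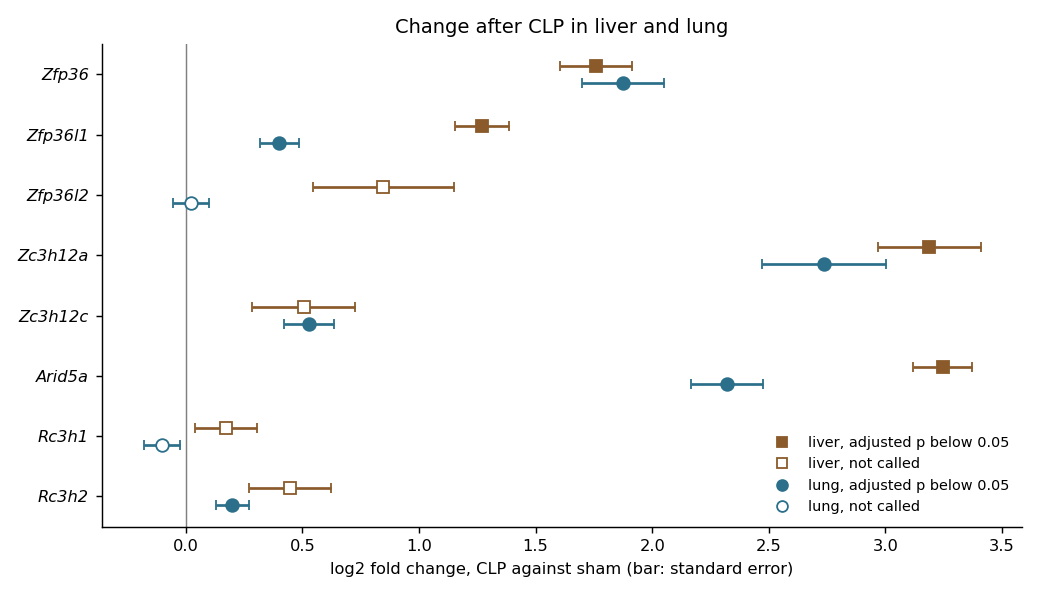
Log2 fold change of CLP against sham for the 8 genes, with standard errors, in liver (squares) and lung (circles); filled symbols have an edgeR adjusted p below 0.05. Arid5a and Zfp36l1 lie further right in liver than in lung, and Zfp36 lies at nearly the same value in both.

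Whether the response differed between the organs was tested by subtracting the liver change from the lung change in a joint model of the 12 libraries. The model took these libraries as independent, although a liver and a lung may have come from the same mouse. The difference was called for 2 of the 8 genes, both with the smaller rise in lung, where 8.84% of 16111 genes tested were called in that direction. Arid5a differed by -0.95 ± 0.21 log2 (edgeR adjusted p = 0.00678) and Zfp36l1 by -0.90 ± 0.14 (edgeR adjusted p = 9.38e-04), and both calls held under all 18 alternatives. Over all genes the calls were 1432 higher and 1424 lower in lung, and 1861 and 965 on library totals. The other 6 genes were not called. Zfp36l2 came nearest, at -0.85 ± 0.32 (edgeR adjusted p = 0.0899). It was called only without CLP liver replicate 1 (-0.98, edgeR adjusted p = 0.044), and was -0.39 without CLP liver replicate 3 (edgeR adjusted p = 0.169). Zc3h12a differed by -0.48 ± 0.37 (edgeR adjusted p = 0.423), Zfp36 by 0.09 ± 0.25 (adjusted p = 0.876) and Zc3h12c by -0.01 ± 0.23 (adjusted p = 1.00). Rc3h1 and Rc3h2 differed by -0.30 ± 0.16 and -0.27 ± 0.20 (edgeR adjusted p = 0.225 and 0.387). In simulated data the same test recovered 33% of genes whose change differed by 1 log2 unit. That simulation gave every gene the same spread, not estimated from these libraries, and changed few genes. Its share is therefore not the power for the 8 genes, and an uncalled difference does not show equal changes.

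Levels without CLP depended on how the organs were put on a common scale. With scaling factors over all 12 libraries, 5 of the 8 genes were called between sham lung and sham liver: Zc3h12c (1.28 ± 0.17 log2), Rc3h2 (0.53 ± 0.14) and Rc3h1 (0.44 ± 0.11) higher in lung, as were 44.4% of genes tested, and Zfp36l1 (-0.49 ± 0.10) and Zfp36 (-0.44 ± 0.18) lower, as were 36.5%. On unscaled library totals all 8 were called higher in lung, and Zfp36 and Zfp36l1 turned to 0.88 and 0.83. The same change of scale moved the median of all genes from 0.19 to 1.5 log2 and the calls from 7146 higher and 5875 lower to 11983 and 2401. Zc3h12c was the gene furthest toward lung on either scale. Zfp36 lost its call as lower in lung under 6 further alternatives, among them DESeq2 (-0.35, adjusted p = 0.0834) and upper-quartile scaling (-0.19), and the calls of Rc3h1 and Rc3h2 were lost without sham liver replicate 1, at 0.21 and 0.28.

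Per kilobase of that same transcript (the longest coding sequence), which allows levels of different genes to be compared, Zfp36l1 and Zfp36 were the highest of the 8 in every group. In sham liver Zfp36l1 stood at 31.9 ± 2.89 CPM per kilobase (SD, n = 3) and Zfp36 at 22.9 ± 2.56, and in CLP liver they stood at 77.0 ± 4.30 and 77.6 ± 13.6, which do not differ beyond their spread. In sham lung the order was again Zfp36l1 (58.5 ± 3.26) before Zfp36 (43.5 ± 3.95), and in CLP lung Zfp36 (159 ± 40.1) stood above Zfp36l1 (77.3 ± 4.99). Arid5a and Zc3h12a came next in CLP liver (30.0 ± 1.25 and 28.2 ± 5.86) and in CLP lung (47.8 ± 10.5 and 44.6 ± 16.0), and each of these pairs lay within its spread. In the shams Zfp36l2 held the third place instead, at 7.51 ± 1.47 in liver and 27.0 ± 1.69 in lung. Zc3h12c was the lowest in all groups, from 0.810 ± 0.174 in sham liver to 7.26 ± 0.933 in CLP lung. Per kilobase of all annotated exons Arid5a fell to the 5th place after CLP in both organs and Zc3h12c was no longer the lowest in lung. The exon totals of Arid5a (12540 bases) and Rc3h2 (19624 bases) were far longer than the transcripts used (3002 and 8799 bases). In CLP liver Zfp36l1 then stood at 77.0 and Zfp36 at 62.4, so their near equality there depends on the length used.

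The ratio of 2 genes within a library does not depend on how libraries are scaled, so it shows how the balance within each family moved. The ratio of Zfp36 to Zfp36l1 counts was 0.627 to 0.723 in sham liver and 0.842 to 1.06 in CLP liver, and 0.637 to 0.803 in sham lung and 1.63 to 2.30 in CLP lung. The groups did not overlap in either organ, and the ratio passed 1 in every CLP lung. The ratio of Zfp36 to Zfp36l2 went from 1.18 to 1.33 in sham lung to 3.54 to 6.2 in CLP lung, and overlapped in liver (1.88 to 3.23 in shams, 2.59 to 7.51 after CLP). The ratio of Zc3h12a to Zc3h12c was 1.32 to 2.63 in sham liver and 10.8 to 11.1 in CLP liver, and 0.549 to 0.633 in sham lung and 1.89 to 3.28 in CLP lung. The 3 CLP livers thus held almost the same ratio of these Regnase transcripts.

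For Zc3h12a and Arid5a, whose products act in opposite ways on Il6 mRNA, the ratios overlapped between surgeries, which does not show that they were unchanged. The ratio of Zc3h12a to Arid5a was 0.737 to 1.01 in sham liver and 0.750 to 1.05 in CLP liver, and 0.594 to 0.698 in sham lung and 0.588 to 1.04 in CLP lung. CLP lung replicates 1 and 2 (0.940 and 1.04) lay above every sham lung, and the mean shift in lung was 0.37 log2. The ratio of Rc3h1 to Rc3h2 was lower in every CLP library than in every sham library of its organ: 1.58 to 1.76 in sham and 1.27 to 1.44 in CLP liver, and 1.47 to 1.69 in sham and 1.17 to 1.32 in CLP lung. In all, 3 of the 5 ratios in liver and 4 of the 5 in lung did not overlap between surgeries. Among all pairs of genes tested, the ratio did not overlap in 57.0% of pairs in liver and 59.2% in lung, so these counts are near the background and the separation itself is not particular to these genes. With 3 libraries against 3 the exact two-sided permutation test cannot give less than p = 0.1, which the 7 non-overlapping ratios reached (0.143 after Benjamini-Hochberg adjustment over the 10), so none passes 0.05.

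**Figure D3:**
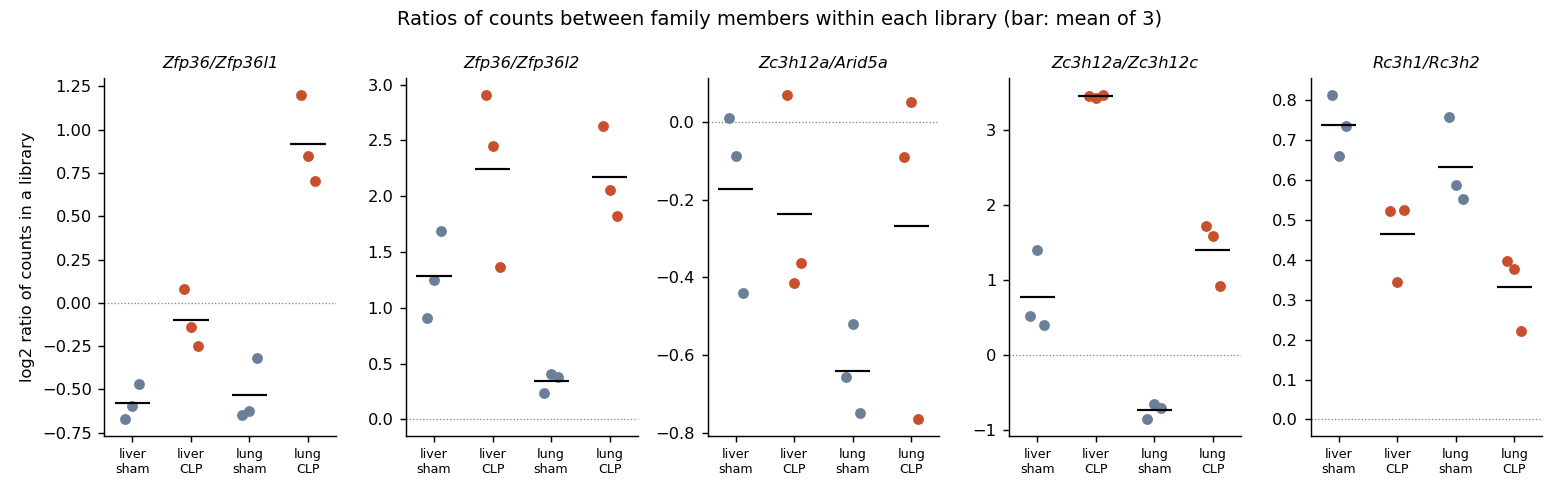
Log2 ratio of the counts of 2 genes within each library, by organ and surgery; points are libraries, bars are means of 3 and the dotted line marks equal counts. Zfp36 to Zfp36l1 lies below 0 in all shams and above 0 in the 3 CLP lungs, and Zc3h12a to Zc3h12c is nearly identical in the 3 CLP livers.

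The genes most like each of the 8 were ranked by Pearson's r of log2 CPM over the 12 libraries, each organ centred on its mean, among 10976 genes. These values share libraries and the CLP contrast, so a high r is reached by any gene with the same step between surgeries, and no p is given. Nearest to Zc3h12a were Il1rn, the interleukin-1 receptor antagonist (r = 0.995), Hdc, which makes histamine (0.995), and Slc2a6 (0.993). Nearest to Arid5a were Cpne8 (0.994), the RNA helicase gene Ddx3x (0.993) and Tnip2 (0.990), and nearest to Zfp36 were Eif6 (0.992), Lilr4b (0.991) and Sema4d (0.990). Zfp36l1 lay nearest to Sphk1, a sphingosine kinase (0.995), Tgm2, a transglutaminase (0.993), and Sgms1 (0.990), which like it had larger changes in liver (4.31, 2.85 and 2.07 log2) than in lung (1.03, 0.92 and 0.63). Among the 8, the closest pairs were Zc3h12a with Arid5a (0.983), Zfp36 with Zc3h12a (0.978) and Zfp36 with Arid5a (0.961). The nearest genes of the others had lower r: Slc30a5 for Zfp36l2 (0.875), Bend3 for Zc3h12c (0.927), Ccp110 for Rc3h1 (0.853) and Amigo3 for Rc3h2 (0.922).

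The decay enzymes that these proteins recruit had list medians near 0. Over all genes tested, 21.4% were called higher and 21.0% lower in liver, and 23.9% and 24.9% in lung. The counts of listed genes here and in the following paragraphs are to be read beside these shares, and no list was tested against them. Counts of rises in the deadenylase, decapping and exosome lists lay within a few genes of the shares, so they do not set these lists apart. Of 15 CCR4-NOT subunits and adaptors, 4 rose and 2 fell in liver and 3 rose and 4 fell in lung, with medians of 0.08 and 0.07 log2. The largest rises were of adaptor genes, Btg2 in liver and Btg1 in lung. Btg2, an antiproliferative protein that binds the deadenylases, went from 38.7 ± 18.5 to 236 ± 135 CPM in liver (2.61 ± 0.50 log2, edgeR adjusted p = 0.00725) and from 202 ± 23.1 to 329 ± 19.9 CPM in lung (0.71 ± 0.10). Btg1 rose by 1.00 ± 0.15 in liver and 1.41 ± 0.11 in lung, and the deadenylase subunit Cnot8 fell by 0.59 in liver (edgeR adjusted p = 0.00377). Adaptors and subunits did not part by direction in liver. The adaptor gene Tob1 had the largest fall of the list there (-1.01 log2, edgeR adjusted p = 0.00705). The subunits Cnot6 and Cnot11 rose by 0.37 and 0.38 (edgeR adjusted p = 0.0267 and 0.0200). Tob1, Cnot6 and Cnot11 were picked after their values were seen. Of 6 other deadenylases, 0 rose and 1 fell in liver and 1 rose and 2 fell in lung. The counts of falls were unsteady: over the 12 alternatives they ran from 0 to 3 in liver and from 0 to 4 in lung. Noct, a circadian enzyme related to deadenylases, rose from 15.1 ± 0.596 to 67.1 ± 14.6 CPM in lung (2.15 ± 0.16), and in liver its levels were 26.4 ± 15.9 CPM (sham) and 10.2 ± 1.49 CPM (CLP), a difference that was not called (edgeR adjusted p = 0.0599).

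Of 18 decapping and 5′-to-3′ decay genes, 5 rose and 1 fell in liver and 6 rose and 1 fell in lung. Xrn1, the exonuclease that degrades decapped mRNA, rose by 0.78 ± 0.14 in liver and was not called in lung (0.18 ± 0.12). Pnrc1, a coactivator that also binds the decapping enzyme, went from 25.4 ± 7.04 to 194 ± 100 CPM in liver (2.94 ± 0.42, edgeR adjusted p = 0.00209). In lung Pnrc1 rose by 0.64 ± 0.16 (edgeR adjusted p = 0.0138). Dcp1b, a decapping cofactor, fell by 0.51 in lung. Of 11 RNA exosome genes tested (of 15 listed), 2 rose and 1 fell in liver and 4 rose and 1 fell in lung, with its nuclease gene Dis3 up by 0.61 ± 0.14 and 0.60 ± 0.11. Of 11 other proteins that bind AU-rich elements, 4 rose and 1 fell in liver and 3 rose and 1 fell in lung, among them Hnrnpab at 0.57 ± 0.10 and 0.57 ± 0.09. The medians of these 3 lists lay between 0.10 and 0.27 log2.

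Of the related Regnase genes, N4bp1, an endonuclease of the same fold, rose by 1.11 ± 0.14 in liver and 1.58 ± 0.14 in lung. Zc3h12d rose from 2.60 ± 0.409 to 9.94 ± 1.2 CPM in lung (1.93 ± 0.18, edgeR adjusted p = 1.58e-04) and had 4.04 ± 0.656 and 3.79 ± 1.46 CPM in liver. With the other genes of that list, 1 of 3 tested rose and 1 fell in liver and 2 of 4 rose and 1 fell in lung. Of 15 genes whose products modify or cleave the 8 proteins, 7 rose and 2 fell in liver and 10 rose and 2 fell in lung, with medians of 0.36 and 0.46 log2. Ikbke, a kinase that marks inflammatory regulators, rose by 2.55 ± 0.18 in liver and 5.01 ± 0.36 in lung. Dusp1, the phosphatase that switches off p38, rose by 1.97 ± 0.18 in liver and 1.89 ± 0.16 in lung. Mapkapk2, the kinase downstream of p38 that phosphorylates tristetraprolin, rose by 1.13 ± 0.12 in liver and 1.56 ± 0.22 in lung, and was picked for its role after its values were seen.

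Most transcripts that these proteins are known to act on rose as well. Of 15 known targets of the tristetraprolin family tested in liver, 12 rose and 0 fell (median 2.06 log2), and of 18 in lung, 15 rose and 1 fell (median 1.90). Of 11 targets of Regnase-1 and Roquin in liver, a list that includes Zc3h12a itself, 10 rose and 1 fell (1.96), and of 14 in lung, 12 rose and 0 fell (2.88). Of the known targets of Arid5a, 3 of 3 rose in liver and 3 of 4 in lung. Many of these genes were taken as inflammatory transcripts with results of these samples known, so their direction is not independent evidence. The lists overlap, and low targets such as Csf2 in liver were not tested.

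Il6, which Regnase-1 cuts and Arid5a protects, had 2 counts over the 3 sham livers and 47 over the CLP livers, and 2 over the sham lungs and 270 over the CLP lungs. Cxcl2, a neutrophil attractant, rose from 0.414 ± 0.139 to 296 ± 132 CPM in lung (9.46 ± 0.54 log2, edgeR adjusted p = 6.41e-05) and by 5.28 ± 0.46 in liver. Ier3, whose mRNA is a target of both families, rose from 1.58 ± 0.736 to 63.3 ± 17.6 CPM in liver (5.35 ± 0.36, edgeR adjusted p = 8.6e-05). In lung Ier3 rose by 1.05 ± 0.20 from a higher level, 117 ± 21.9 to 244 ± 57.2 CPM. Il1b rose from 42.3 ± 4.85 to 379 ± 40.0 CPM in lung (3.16 ± 0.12) and by 1.95 ± 0.38 in liver. Stat3, stabilised by Arid5a, rose from 318 ± 10.5 to 726 ± 24.9 CPM in liver (1.19 ± 0.11) and by 1.10 ± 0.11 in lung. Vegfa, the only tristetraprolin target called lower in lung, fell by 0.35 there (edgeR adjusted p = 0.0183), but the call was lost without CLP replicate 1 or 2 or sham replicate 1 or 3 (-0.27 to -0.33, edgeR adjusted p up to 0.0782), which leaves 0 falling targets.

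**Figure D4:**
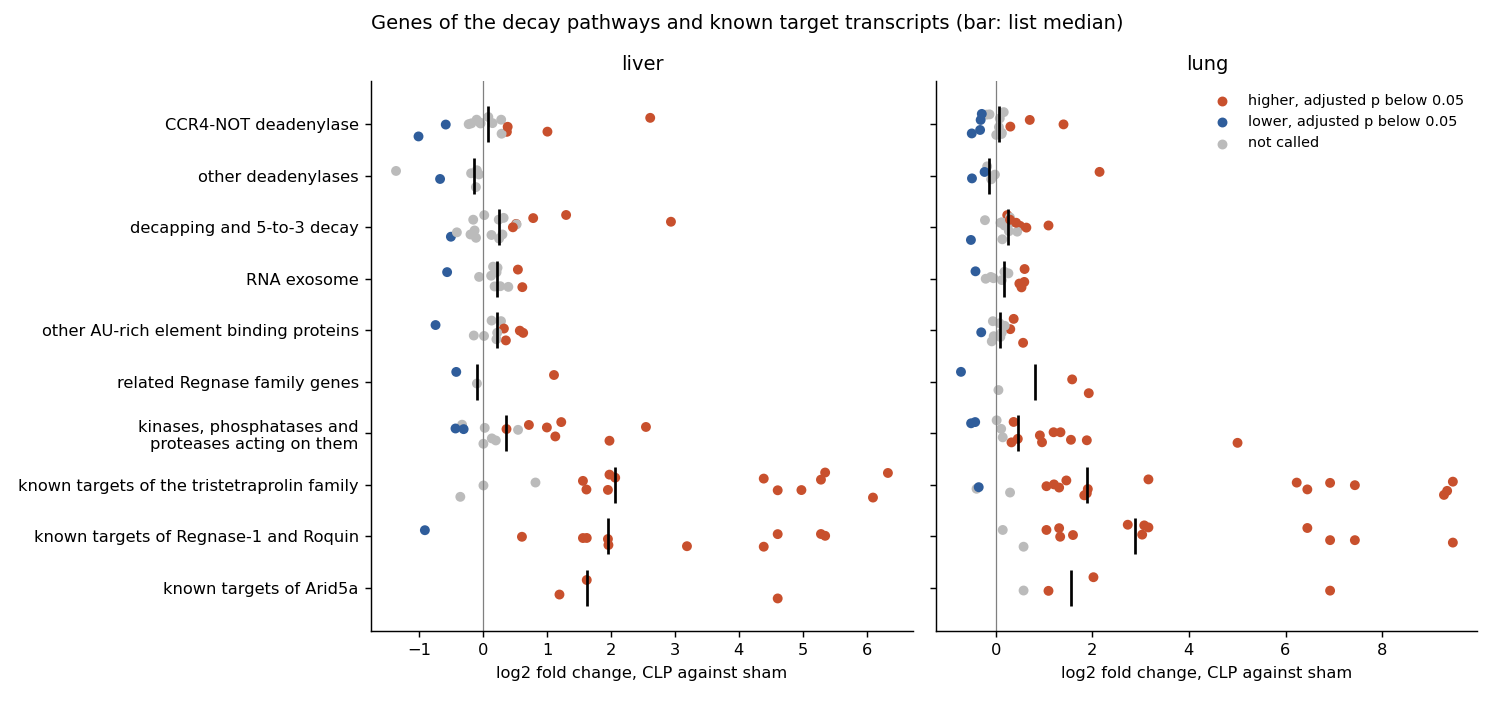
Log2 fold change of CLP against sham for each tested gene of the decay pathways and of the known targets, in liver and lung; red and blue points have an edgeR adjusted p below 0.05, grey points were not called, and bars are list medians. The target lists have medians between 1.56 and 2.88, and those of the deadenylase, decapping and exosome lists lie between -0.15 and 0.27.

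Markers of infiltrating cells moved with these changes. The summed level of 9 neutrophil markers was 17.8 to 20.01 CPM in sham liver and 158 to 217 in CLP liver, and 995 to 1132 in sham lung and 6463 to 9055 in CLP lung, with none at 0. In liver 8 of the 8 tested rose, and in lung 9 of 9. For 7 monocyte markers the sums were 17.9 to 22.3 and 58.1 to 64.0 CPM in sham and CLP liver, and 821 to 1015 and 1661 to 2224 in sham and CLP lung, with 5 of 7 and 7 of 7 rising. The 6 Kupffer cell markers summed to 238 to 266 CPM in sham liver and 127 to 161 in CLP liver, with 5 of 6 falling, and the 6 endothelial markers to 210 to 262 and 186 to 204, with 4 of 6 falling and 1 rising. In lung the endothelial markers summed to 2854 to 3214 CPM in shams and 2456 to 2847 after CLP (4 of 6 falling), and 4 alveolar type 1 cell markers to 3284 to 3469.8 and 1939 to 2712 (2 of 4 falling). The 6 neutrophil precursor markers rose in lung from 13.9 to 32.4 CPM in sum to 898 to 1616 (6 of 6 rising, Mpo at 0 in the shams), 4 NK cell markers from 7.11 to 14.8 to 37.6 to 41.6 (3 of 4) and 6 T cell markers from 10.2 to 15.3 to 25.2 to 28.9 (4 of 6). Of 4 B cell markers, 0 were called in lung (8.76 to 23.9 CPM in shams, 21.2 to 31.3 after CLP). Of 5 alveolar macrophage markers, 3 fell in lung (338 to 376 CPM in shams, 205 to 293 after CLP). In liver, 3 of the 4 of these tested rose and 1 fell (18.3 to 35.9 CPM in shams, 119 to 176 after CLP). Of the 3 neutrophil precursor markers tested in liver, 2 rose and Prtn3 fell (-1.73 log2, edgeR adjusted p = 0.0446). The part of these cell types in the rises of the 8 genes was not tested.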

How the data were processed

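Per the labels' protocols, total RNA went into a stranded TruSeq preparation for the NextSeq500. The authors deposited raw gene counts of the 12 libraries in a single table. The submitters' processing notes name STAR 2.7.10a, featureCounts, FastQC, DESeq2 and build mm39, with no role or order. The strand setting of the counting is not given in the sources used here. Zfp36, Zfp36l1, Zfp36l2 and Zc3h12c overlap non-coding genes on the other strand, whose own counts were 0 to 46 where the table held them.

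Symbols were matched to 52081 of 55414 identifiers. After a low-count filter by group (at least 10 counts, and 15 in total), edgeR 4.0.16 (R 4.3.3) was run with TMM scaling, the robust quasi-likelihood test and Benjamini-Hochberg adjustment at 0.05. A standard error is the log2 change divided by the square root of F, an approximation. Ratios used counts plus 0.5. Alternatives were library totals, upper-quartile scaling, DESeq2 1.42.0, limma-voom (limma 3.58.1), no filter, a replicate block and leaving out each library. On simulated counts edgeR recovered 85% and 100% of genes changed by 1 and 2 log2 units in liver (12409 genes, 3.65% of calls false), and 81% and 99% in lung (15350 genes, 5.26%). Here too every gene had the same spread, not estimated from these libraries, and few genes were changed. These shares are therefore not the power or the share of false calls in the real data. The genes described and the lists were chosen with earlier results of these data known. Named genes of the pathway and target lists are the 2 lowest p and the highest mean CPM of each list in each organ. The exceptions are those said to be picked after their values were seen. Genes most like each member are the 3 with the highest r. Sequences come from RefSeq and GENCODE tables of build GRCm38, an older build than mm39.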

Additional observations from a re-analysis of the deposited data

Results flagged for a closer look

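The change in lung differed from the change in liver, by an edgeR test of the difference itself (Benjamini-Hochberg adjusted p below 0.05), for 2 of the 8 genes and for 10 named genes of the pathway and target lists. Values are the log2 change in lung minus that in liver. Among the 8 they were -0.90 for Zfp36l1 and -0.95 for Arid5a. The change was smaller or lower in lung for Btg2 (-1.94), Xrn1 (-0.63), Pnrc1 (-2.33), Dcp1b (-1.06) and Ier3 (-4.33). It was larger or higher in lung for Noct (3.49), Ikbke (2.43), Zc3h12d (2.00), Cxcl1 (4.85) and Cxcl2 (4.13). Cxcl1 started near the floor in lung, with 11 counts over the sham lungs. Its levels, scaled within each organ, were 0.287 (sham) and 25.4 CPM (CLP) in lung, and 164 and 482 CPM in liver. A larger log2 change in lung therefore does not mean a higher level there. The call was lost under 8 of 18 alternatives for Btg2, 10 of 18 for Xrn1 and 6 of 18 for Cxcl2, and under none of the 18 for the other 9. No formal outlier test was applied to groups of 3 libraries.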

How the results depend on the processing

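Of 8 genes, 4 to 6 were called in liver over the alternatives and 5 or 6 in lung, 2 or 3 for the difference between organs, and 7 or 8 of the 10 ratios did not overlap. Between the sham organs 5 were called, 8 on library totals and 3 to 6 with a library left out. Directions that turned were those of uncalled differences, except the called sham levels of Zfp36 and Zfp36l1 on library totals, and the cause was not tested. On library totals they were Rc3h1 in liver (-0.015), Zfp36l2 in lung (-0.083), Zc3h12c in the difference between organs (0.12), and, between the sham organs, Zfp36 (0.88), Zfp36l1 (0.83) and Zc3h12a (1.07). With upper-quartile scaling they were Zfp36l2 in lung (-0.089) and Zc3h12a between the sham organs (0.0089). With 1 library left out, the range took in both directions for Zfp36l2 in lung (-0.021 to 0.10), Zfp36 in the difference (-0.13 to 0.31), Zc3h12c in the difference (-0.12 to 0.25, with 7 omissions above 0), Pan2 in liver (-0.16 to 0.027) and Ybx1 in lung (-0.044 to 0.018). The labels do not say whether replicate numbers pair the libraries. Correlations of same-numbered deviations between CLP and sham ran from 0.01 to 0.17 in liver and from -0.04 to 0.03 in lung. Between CLP liver and CLP lung they ran from 0.08 to 0.28, and each liver library correlated best with the lung library of its number, a hint from the data and not the design; between the sham organs they ran from -0.04 to 0.10. With the replicate block 6 genes were called in liver, Zc3h12c (0.50, edgeR adjusted p = 0.0442) and Rc3h2 (0.45, 0.0215) being added, and 5 in lung, where Rc3h2 was lost (0.20, 0.106). Without a low-count filter Rc3h2 was called in liver (edgeR adjusted p = 0.0138). Counts of rising targets in the 3 target lists stayed within 1.5 times under all 12 alternatives in each organ, whereas counts of falling genes moved further in most pathway lists. Depth limits Zc3h12c in liver most, with at most 113 counts in a library.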
